A study of Mus musculus with 4 samples.

Results

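Translation initiation factors assemble the ribosome on an mRNA and set it at a start codon. Scanning factors and eIF3 sit on the small ribosomal subunit, eIF2 brings the initiator tRNA, the eIF4 proteins recognise the cap and unwind the mRNA, and eIF5 and eIF5B complete the joining of the large subunit. Phosphorylation of eIF2 and sequestration of the cap-binding protein by 4E-binding proteins are the main routes by which cells, microglia included, slow initiation under stress. The rows described here are all those whose gene symbol begins with Eif and a digit, without the eIF2 kinase genes (Eif2ak) and without the Y-linked Eif2s3y. The rule selected 80 rows of the 56832 in the table.

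The 4 libraries are 1 group of naive microglia, brain-resident macrophages. They came from female C57BL/6 mice with no intervention, littermates that were not transplanted in a series where other mice received GFP-labelled hematopoietic grafts and then CSF1R inhibition. Sorting kept CD11b+ cells with low or intermediate CD45. The labels name no age, transgene or deletion for this group. The graft-derived cells were not analysed here, so no contrast between groups was made. Nothing in the labels ties a library to an animal of its own, so p-values measure only the spread between these libraries, which may be technical.

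The libraries held 20360121 to 23292655 reads assigned to genes, and 13944 to 18978 rows had a count. All 12 fixed microglia markers stood at 10 CPM or more in every library, where CPM is a row's count scaled to 1e6 assigned reads. Their summed level was 59423, 31767, 32930 and 62369 CPM in replicates 1 to 4. The libraries differed in other ways. The 18 immediate early genes on a fixed list, whose transcription responds fast to stimuli, took 0.551%, 5.98%, 5.19% and 0.584% of counts in replicates 1 to 4. Oligodendrocyte markers, of which 5 of 6 stood at 10 CPM or more in every library, summed to 484, 1734, 1768 and 545 CPM, highest in the same replicates 2 and 3. Border macrophage markers, 6 of 7 at that level, summed to 284, 743, 778 and 431 CPM. Of these markers, Ms4a7 (83.5 CPM) and Cd163 (32.6 CPM) were highest in replicate 4, and each of the others in replicate 2 or 3. Ependymal and choroid plexus markers, 1 of 5 at that level, summed to 453, 920, 930 and 2074 CPM, most of it Ttr, with Foxj1 at 0 in replicates 1, 3 and 4 and Clic6 at 0 in replicate 4. Neutrophil markers, 7 of 9 at that level, summed to 1501, 286, 276 and 2403 CPM, with Ly6g at 0 in replicates 3 and 4. None of the 6 T and NK cell markers reached 10 CPM in every library. Replicate 4 had the fewest rows with a count. The part of these differences in the values below was not tested.

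Most genes of the initiation machinery were present in every library. Of the 80 rows, 49 stood at 1 CPM or more in every library, against 14.8% of all rows in the table, and 43 passed 10 CPM throughout, against 10.1% of all rows. The higher level of 100 CPM in every library was reached by 14 rows, against 2.01% of all rows. Together the 80 rows took 0.668%, 0.746%, 0.752% and 0.695% of counts in replicates 1 to 4, a mean of 0.715% ± 0.0409 (SD, n = 4), and the exact 95% binomial interval was 0.664 to 0.671% in replicate 1 and 0.749 to 0.756% in replicate 3. With TMM scaling the shares were 0.660%, 0.772%, 0.794% and 0.643%, so which library was lowest depended on the scaling. The 4 highest rows, Eif4a1, Eif4g2, Eif1 and Eif5a, held 40.3% ± 3.01 (SD, n = 4) of the counts of all 80. In bulk RNA, fewer cells of a type and less RNA per cell cannot be told apart.

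Low or empty rows made up the rest. A mean of 10 CPM or more was reached by 48 rows, and 5 more stood between 1 and 10 CPM. A further 11 rows had a count but a mean below 1 CPM, with at most 30 counts in a library, and 16 had no count, against 61.9% of all rows. The 17 rows Eif1ad2 to Eif1ad19, which are relatives of Eif1ad, held at most 8 counts in a library, and 12 of them held none. Eif4e1b, which encodes an eIF4E relative known from oocytes, Eif4ebp3 and the noncoding RNA row Eif2c5 also had no count. With 0 counts, up to 3 counts remain possible, or 0.129 to 0.147 CPM in these libraries.

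**Figure D1:**
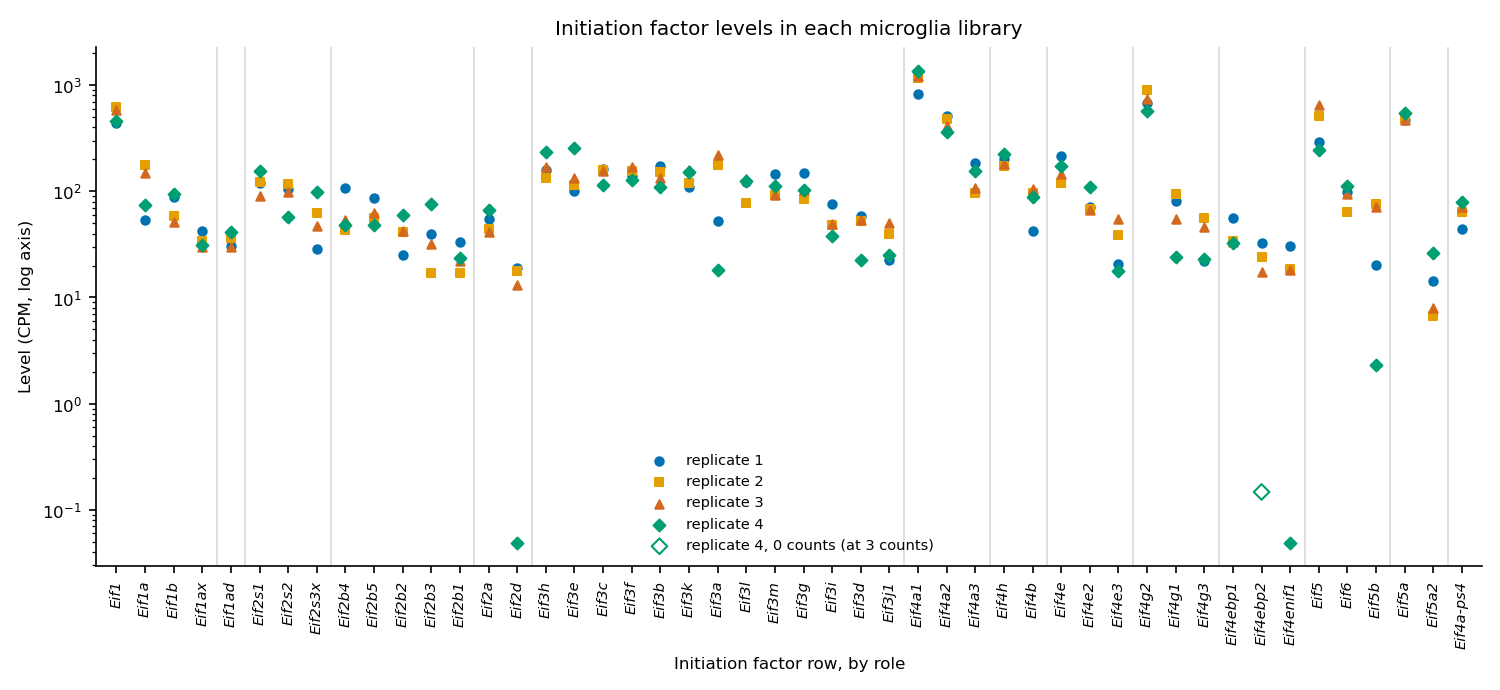
Level of each of the 48 initiation factor rows with a mean of 10 CPM or more, in CPM on a log axis, with 1 point per library and rows grouped by role between the grey lines. Eif4a1 is the highest row in CPM, and replicate 4 lies far below the other libraries for Eif2d, Eif4ebp2 and Eif4enif1 (the open symbol stands for 0 counts, drawn at the limit of 3 counts).

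Start codon selection rests on eIF1 and eIF1A, which hold the small subunit in a scanning state. Eif1 stood at 443, 627, 580 and 460 CPM in replicates 1 to 4, with the higher values in replicates 2 and 3. Its paralog Eif1b ran the other way, at 88.1, 59.0, 51.0 and 94.0 CPM. Per kb of exon, Eif1 exceeded Eif1b by 1.99 ± 0.66 (log2, SD, n = 4) in 4 of 4 libraries, and it made up 72.9%, 85.1%, 85.9% and 72.4% of the pair in replicates 1 to 4. Eif1a stood at 53.1, 178, 149 and 74.2 CPM, with replicates 2 and 3 highest, whereas the X-linked Eif1ax stood at 42.7, 34.2, 29.6 and 31.5 CPM over a narrower range. The log2 ratio of Eif1ax to Eif1a per kb of exon was -1.90 ± 0.99 (SD, n = 4), and Eif1a was the higher gene in 4 of 4 libraries. Eif1ad, whose product carries an eIF1A-like domain, stood at 30.3, 36.2, 30.0 and 41.7 CPM.

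The order of Eif1 over Eif1b and of Eif1a over Eif1ax was thus the same in every library, but its size was not: both ratios were largest in replicates 2 and 3, the libraries with 5.98% and 5.19% of counts in immediate early genes. The part of the immediate early state in these ratios was not tested.

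The eIF2 complex carries initiator tRNA to the small subunit, and its alpha subunit, encoded by Eif2s1, is the target of the stress kinases. Eif2s1 stood at 121, 122, 90.9 and 155 CPM in replicates 1 to 4. Eif2s2, the beta subunit gene, stood at 105, 116, 98.9 and 56.8 CPM and was lowest in replicate 4. Eif2s3x, the X-linked gamma subunit gene, stood at 28.8, 62.8, 46.8 and 98.7 CPM and was highest in replicate 4. The 3 subunit genes thus had different orders of libraries. Per kb of exon, Eif2s1 was the highest of the 3 in 4 of 4 libraries, with log2 ratios of -0.85 ± 0.71 for Eif2s2 and -0.78 ± 0.62 for Eif2s3x (SD, n = 4). The Eif2s2 ratio was -0.50 without replicate 4 and -0.40 without length correction, and the Eif2s3x ratio was -0.48 without replicate 1 and -1.26 per kb of the longest transcript.

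The exchange factor eIF2B recharges eIF2 with GTP, and loss of function in its subunit genes is known to cause a human leukodystrophy. All 5 subunit genes were above 10 CPM in every library. Eif2b5, which encodes the catalytic epsilon subunit, stood at 85.7, 55.6, 62.0 and 48.2 CPM in replicates 1 to 4. Eif2b4, the delta subunit gene, stood at 107, 43.3, 53.7 and 48.1 CPM, with replicate 1 apart from the rest. Eif2b3, the gamma subunit gene, stood at 39.7, 17.0, 32.1 and 76.1 CPM and had the widest range, 4.48-fold. Eif2b2, the beta subunit gene, stood at 25.3, 41.8, 42.2 and 59.5 CPM and was lowest in replicate 1. Eif2b1, the alpha subunit gene, stood at 23.9 ± 6.76 CPM (SD, n = 4). Of the 5 genes, 2 stayed within a 2-fold range over the libraries. Per kb of exon, Eif2b4, Eif2b5 and Eif2b2 lay close together, at means of 24.2, 24.2 and 22.4 CPM per kb, and Eif2b1 and Eif2b3 lay lower, at 9.26 and 6.32.

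A pair of factors can deliver tRNA outside the eIF2 complex. Eif2a, which despite its symbol is no eIF2 subunit, stood at 55.2, 44.4, 41.4 and 66.6 CPM in replicates 1 to 4. Eif2d stood at 19.0, 17.9 and 13.1 CPM in replicates 1 to 3, and replicate 4 held 1 count against 392, 404 and 306 in the others. Without replicate 4, the log2 ratio of Eif2d to Eif2a per kb of exon was -1.77 ± 0.17 (SD, n = 3).

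eIF3 is the large scaffold that binds the small subunit, the mRNA and eIF4G. Its 13 subunit genes other than Eif3j2 all stood at 10 CPM or more throughout, and the level of the 14 genes per kb of exon ran from 1.11 CPM for Eif3j2 to 108 CPM for Eif3h, with a median of 36.7. Eif3h stood at 160, 134, 168 and 233 CPM in replicates 1 to 4 and Eif3c, a subunit of the structural core, at 161, 158, 157 and 114 CPM. Eif3f, a core subunit, stood at 139, 154, 169 and 127 CPM, a range of 1.33-fold. Eif3b, Eif3k, Eif3l, Eif3m and Eif3g had means between 109 and 143 CPM, and Eif3i stood at 52.9 ± 15.8 CPM (SD, n = 4). Of these 13 genes, 9 stayed within a 2-fold range.

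Eif3a, which encodes the largest subunit and the backbone of the core, had the widest range of the 13. It gave 53.0, 176, 222 and 18.2 CPM in replicates 1 to 4, a range of 12.2-fold, with replicates 2 and 3 high and replicate 4 lowest. The summed level of the other subunits over the same libraries was 1420, 1230, 1398 and 1414 CPM. Eif3a therefore made up 3.60%, 12.5%, 13.7% and 1.27% of eIF3 counts. Eif3e, a core subunit, took the opposite direction in replicate 4, at 101, 116, 133 and 254 CPM. Eif3d, which can bind the cap of selected mRNAs, stood at 58.4, 52.1, 53.2 and 22.4 CPM, and 43.3% of its annotated exon bases overlap another gene, whose reads cannot be told apart without a stated strand setting. Eif3j1, the loosely bound subunit, stood at 22.6, 39.4, 50.5 and 25.3 CPM.

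**Figure D2:**
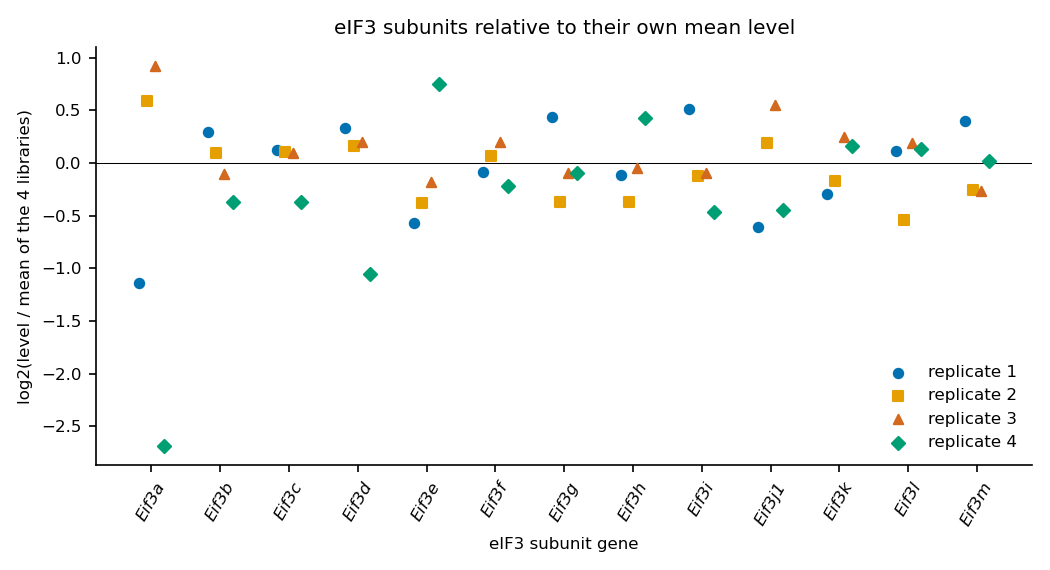
Level of each of the 13 eIF3 subunit genes with a mean above 10 CPM, as log2 of the level over the gene's own mean across the 4 libraries, with 1 point per library. Eif3a spans 12.2-fold between replicates 3 and 4, and Eif3f spans 1.33-fold.

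The eIF4A helicases unwind the mRNA leader, and Eif4a1 was the highest initiation factor row in CPM in every library. Per kb of exon its mean of 265 CPM lay close to the 251 of Eif1, and which of them was higher differed between libraries. Eif4a1 stood at 830, 1178, 1210 and 1371 CPM in replicates 1 to 4, lowest in replicate 1. Its paralog Eif4a2 stood at 515, 476, 410 and 361 CPM, highest in replicate 1. Eif4a3, a helicase of the exon junction complex rather than of the cap complex, stood at 186, 97.0, 107 and 154 CPM. Per kb of exon, Eif4a1 exceeded Eif4a2 by 1.67 ± 0.52 and Eif4a3 by 2.07 ± 0.66 on the log2 scale (SD, n = 4), each in 4 of 4 libraries. Eif4a1 made up 51.0%, 66.8%, 68.6% and 69.2% of the 3 helicase genes in replicates 1 to 4.

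The Eif4a1 values carry a limit from a near-identical copy. The processed pseudogene row Eif4a-ps4 stood at 43.9, 64.1, 71.3 and 80.2 CPM in replicates 1 to 4, which is 5.29%, 5.44%, 5.89% and 5.85% of the Eif4a1 counts. The order of the libraries by CPM was the same for both rows. In the GENCODE M21 transcripts (build GRCm38), the 1218 bases of the pseudogene differ from the Eif4a1 coding sequence at 1 base, G534A, where the position is counted from the first base of the start codon, the Eif4a1 base stands first and the pseudogene base last. The 100 bases around it, positions 484 to 583, are shown because this base is the only difference over the length of the pseudogene, and it is in capitals. The other Eif4a1 exon bases, outside the aligned coding sequence, were not compared.
Eif4a1: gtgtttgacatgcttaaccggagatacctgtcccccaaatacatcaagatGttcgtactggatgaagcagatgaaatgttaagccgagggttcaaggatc
Eif4a-ps4: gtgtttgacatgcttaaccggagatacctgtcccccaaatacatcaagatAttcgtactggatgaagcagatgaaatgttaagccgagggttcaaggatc
The longest stretch without a difference was 684 bases. Reads from such a stretch fit both rows, and how many were split between them or dropped as not unique was not tested. By contrast, the Eif4a2 coding sequence is 77.9% identical to that of Eif4a1, and the longest run they share is 20 bases.

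The same check was made for other copies. Eif3j2 is 99.7% identical to Eif3j1 over the coding sequence, with a shared run of 784 bases, and it held 5.15%, 8.55%, 9.01% and 6.02% of the Eif3j1 counts in replicates 1 to 4. Both levels are therefore uncertain. The pseudogene rows Eif1-ps1, Eif5al3-ps and Eif3s6-ps2 are 95.8%, 93.5% and 95.9% identical to the coding sequences of Eif1, Eif5a and Eif3e, and they held 0.296% ± 0.0607, 0.556% ± 0.127 and 1.10% ± 0.225 of the counts of those genes (SD, n = 4). In replicates 1 to 4, Eif1-ps1 stood at 1.26, 1.64, 1.46 and 1.77 CPM. Eif5al3-ps stood at 1.70, 2.97, 2.92 and 3.34 CPM. Eif3s6-ps2 stood at 0.825, 1.24, 1.80 and 3.0 CPM. All 3 were highest in replicate 4 and lowest in replicate 1, as was Eif4a-ps4. Eif4a3l2, named for Eif4a3, stood at 2.47, 1.46, 1.42 and 1.62 CPM and held 1.30% ± 0.188 of the Eif4a3 counts (SD, n = 4). The 10 pseudogene rows together stood at 48.9, 71.8, 79.2 and 91.5 CPM, of which Eif4a-ps4 was the largest part.

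The helicase cofactors eIF4H and eIF4B stimulate eIF4A. Eif4h stood at 200, 173, 182 and 226 CPM in replicates 1 to 4, a range of 1.31-fold. Eif4b stood at 42.5, 96.6, 105 and 89.1 CPM, with replicate 1 lowest. Eif4h exceeded Eif4b per kb of exon by 0.99 ± 0.67 (log2, SD, n = 4) in 4 of 4 libraries, and by 1.80 per kb of the longest transcript.

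Cap binding itself rests on eIF4E. Eif4e stood at 216, 121, 145 and 172 CPM in replicates 1 to 4, highest in replicate 1. Eif4e2, whose product is known to repress rather than promote translation, stood at 71.6, 68.4, 66.3 and 111 CPM, with replicate 4 apart. Eif4e3 stood at 20.8, 38.9, 55.4 and 17.6 CPM, with the higher values in replicates 2 and 3. Eif4e was the highest of the 3 per kb of exon in 4 of 4 libraries. It exceeded Eif4e2 by 1.36 ± 0.42 (0.52 per kb of the longest transcript) on the log2 scale (SD, n = 4), and Eif4e3 by 2.24-fold on average. The log2 margin over Eif4e3 was 2.12, 0.37, 0.13 and 2.03 in replicates 1 to 4, and it was 2.42 on average without length correction.

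The eIF4G scaffolds join the cap complex to eIF3. Eif4g2, which encodes a scaffold that lacks the eIF4E-binding site, was the highest of the 3 in every library, at 680, 894, 735 and 576 CPM in replicates 1 to 4. Eif4g1, the canonical scaffold, stood at 81.1, 94.6, 55.0 and 24.1 CPM, lowest in replicate 4. Eif4g3 stood at 22.0, 55.7, 45.9 and 23.1 CPM. Per kb of exon, Eif4g2 exceeded Eif4g1 by 3.18 ± 0.68 on the log2 scale (SD, n = 4), a 9.06-fold ratio, in every library, and it made up 83.6%, 83.0%, 86.1% and 91.3% of the family. Eif4g1 exceeded Eif4g3 by 1.34 ± 0.81, or 0.74 without length correction.

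The 4E-binding proteins hold eIF4E away from eIF4G unless mTORC1 phosphorylates them. Eif4ebp1 stood at 55.6, 34.0, 33.5 and 32.8 CPM in replicates 1 to 4, with replicate 1 apart from 3 near-equal values. Eif4ebp2 stood at 32.6, 24.3 and 17.6 CPM in replicates 1 to 3 and had 0 counts in replicate 4, where that depth allows up to 0.147 CPM. Without replicate 4, the log2 ratio of Eif4ebp1 to Eif4ebp2 per kb of exon was 2.13 ± 0.23 (SD, n = 3). Eif4ebp3 had 0 counts in every library, and 67.3% of its annotated exon bases overlap another gene, and whether reads there were set aside as ambiguous was not tested. Eif4enif1, which encodes the eIF4E transporter of processing bodies, stood at 30.3, 18.7 and 18.3 CPM in replicates 1 to 3, and replicate 4 held 1 count against 624, 423 and 426 in the others.

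**Figure D3:**
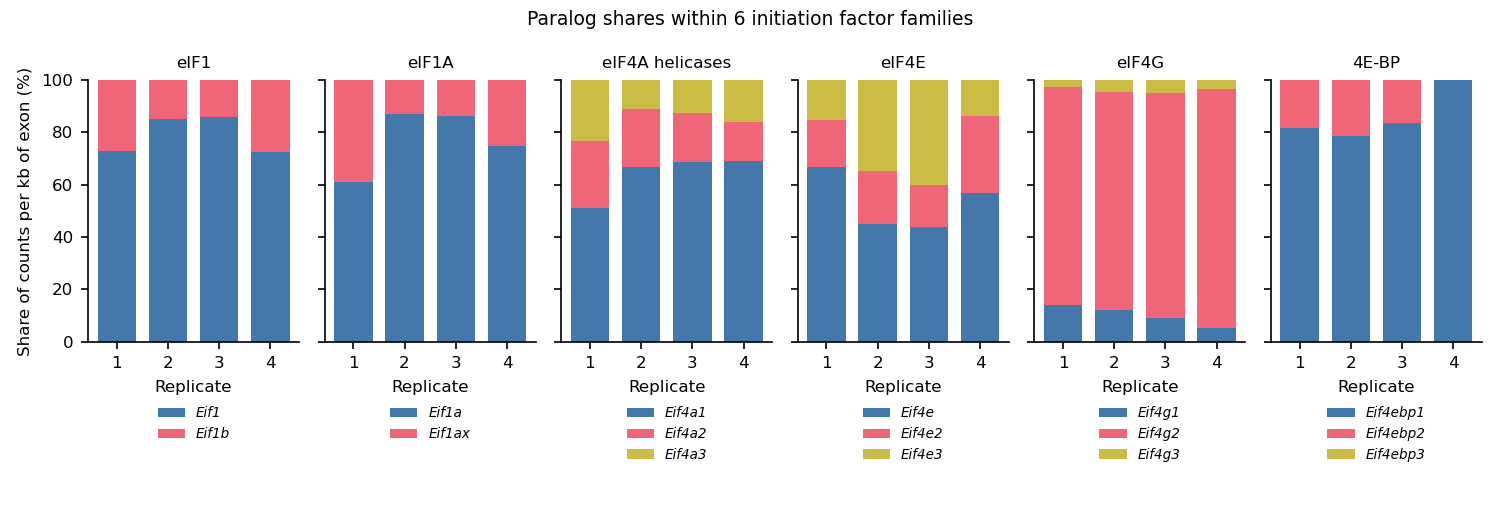
Share of each paralog in its family, as a percentage of the family's counts per kb of exon, for 6 families with 1 bar per library. Eif4g2 takes 83.0% to 91.3% of the eIF4G family, and the Eif1 and Eif1a shares are larger in replicates 2 and 3 than in replicates 1 and 4.

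The last steps of initiation use eIF5, the GTPase activator of eIF2, and eIF5B, the GTPase that joins the subunits. Eif5 stood at 294, 511, 650 and 244 CPM in replicates 1 to 4, with replicates 2 and 3 high. Eif5b was also high in replicates 2 and 3 and had a wider range, at 20.3, 75.2, 70.5 and 2.31 CPM, the last resting on 47 counts. Its range was 32.6-fold, and 16.8% of its exon bases overlap another gene. Eif6, whose product keeps free large subunits apart from small ones, stood at 97.5, 64.0, 94.3 and 111 CPM. The log2 ratio of Eif5 to Eif5b per kb of exon was 4.65 ± 1.77 (SD, n = 4), and 3.79 without replicate 4.

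eIF5A, which needs the modified residue hypusine and acts mainly in elongation and termination, had the narrowest range of all. Eif5a stood at 465, 480, 466 and 544 CPM in replicates 1 to 4, 1.17-fold from lowest to highest, the narrowest among the 48 rows at a mean of 10 CPM or more. Eif5a2 stood at 14.3, 6.64, 7.94 and 26.2 CPM, higher in replicates 1 and 4. Eif5a exceeded Eif5a2 by 6.44 ± 0.82 per kb of exon (log2, SD, n = 4) in 4 of 4 libraries.

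Of the 16 gene pairs compared per kb of exon, 15 had the same gene higher in every library and 1 was mixed. The mixed pair was Eif4ebp2 over Eif4ebp3, where both had 0 counts in replicate 4. A two-sided exact permutation test that flips signs over libraries gave p = 0.13 for the 15 pairs of 1 order, adjusted p = 0.13 over the 16 pairs. That is the smallest value the test can give with 4 libraries, so no pair can reach 0.05.

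Spread between libraries was then set against the spread of all genes at the same level. The fit in edgeR covered 9075 rows, among them 51 of the 80 initiation factor rows, and it called 0 rows, initiation factors included (0.0% of all rows), at an adjusted p under 0.05. At an unadjusted p under 0.05 it marked 395 rows (4.35% of those tested), of which 2 were initiation factors, Eif3a and Eif5b. DESeq2 marked 0 dispersion outliers. The edgeR test can miss large differences. In data simulated at the fitted trend, it called 2 of 100 rows changed 4-fold in 2 of 4 libraries. Of rows changed 16-fold it called 44 of 100. The 0 calls therefore do not show that a row varied no more than others at its level. The filter on low counts left out 29 of the 80 rows. Eif2d, Eif4ebp2 and Eif4enif1 were left out because of replicate 4, so the fit does not describe these 3 genes.

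Eif3a had a dispersion 3.93 above the trend on the log2 scale (unadjusted p = 0.010, adjusted p = 0.94 by edgeR's quasi-likelihood F test), higher than 99.2% of all rows tested. Eif5b had 3.43 (unadjusted p = 0.019, adjusted p = 0.94 by the same edgeR test). Eif1a, Eif5 and Eif4g1 followed with 2.20, 2.08 and 1.62. The 17 immediate early genes tested had a median of 4.43. At the other end, Eif5a lay at -5.27, lower than all but 0.705% of rows, and Eif4h lay at -3.98.

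**Figure D4:**
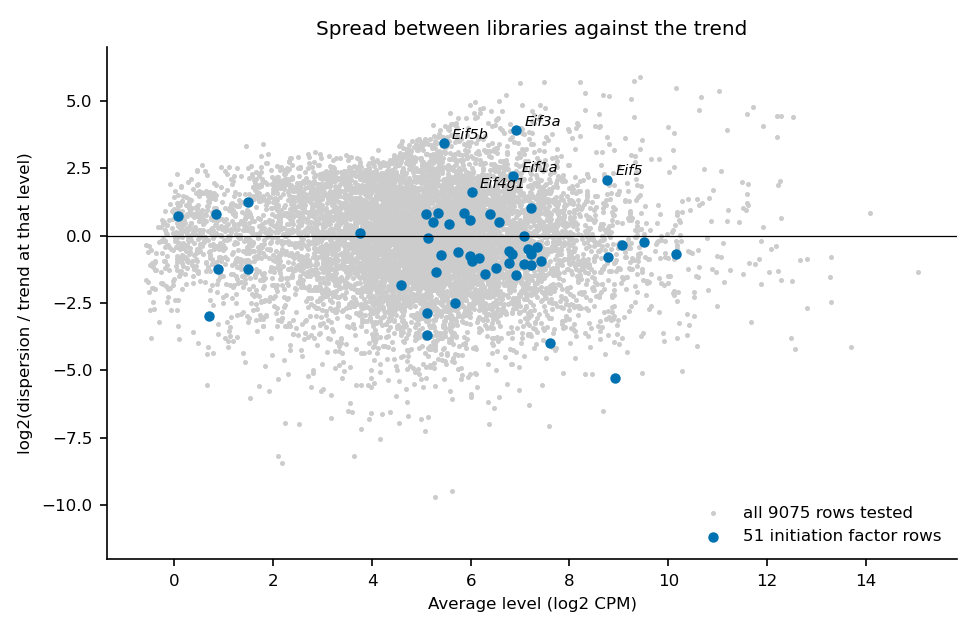
Dispersion of each of 9075 rows between the 4 libraries, as log2 of its ratio to the trend, against the average level in log2 CPM, with all rows in grey and the 51 initiation factor rows in blue. The horizontal line is the trend, Eif3a lies 3.93 above it, and Eif5a is the lowest blue point at -5.27.

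As a group the initiation factors tested lay below the trend, with a median of -0.59 on the log2 scale against -0.09 for all rows, and 19 of 51 lay above it (48.2% of all rows did). That order turned without replicate 4, where the medians were -0.20 and -0.31. Among rows at a mean of 10 CPM or more, 28 of 48 initiation factors stayed within a 2-fold range over the libraries, or 58.3%, against 33.9% of all 8175 such rows. Their median coefficient of variation was 27.9% against 40.2%, and their median level was higher, 81.3 against 39.1 CPM. Counting error alone gives a median coefficient of 2.46% over 45 of these rows.

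The order of the libraries differed from row to row. Replicates 2 and 3 held the highest levels for 11 of the 48 rows, or 22.9%, against 21.7% of all rows. These were Eif1, Eif1a, Eif3a, Eif3f, Eif3j1, Eif4b, Eif4e3, Eif4g2, Eif4g3, Eif5 and Eif5b. Replicates 1 and 4 held the highest levels for 12 rows, or 25.0%, against 27.0% of all rows, among them Eif1b, Eif4e, Eif4a3 and Eif5a2. With TMM scaling the first count was 13, and the share over all rows was not computed for that scaling. Replicate 1 was highest for 17 rows, or 35.4% (27.5% of all rows), and lowest for 12 (21.8% of all rows). Replicate 2 was highest for 7 (20.7% of all rows). Replicate 4 was highest for 16 rows (36.0% of all rows) and lowest for 18 (37.7% of all rows).

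Near-empty values in replicate 4 were found among all genes too. Of the 47 initiation factor rows at 10 CPM or more in replicates 1 to 3, 3 held 3 counts or fewer in replicate 4, namely Eif2d, Eif4ebp2 and Eif4enif1, or 6.38%, against 4.6% of all such rows. The same 3 lay below 1 in 10 of the lowest other library, against 10.2% of all rows, and in replicate 1 none did, against 1.43%. In replicates 1, 2 and 3 no initiation factor held 3 counts or fewer under the same rule, against 0.722%, 0.0% and 0.0% of all rows.

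Promoter sequences were read for the 40 initiation factor genes with an entry in RefSeq's table (build GRCm38.p6), from 250 bases before to 50 bases after each annotated start. The motifs searched on both strands were the E-box CACGTG, which MYC family proteins are known to bind, the AP-1 site TGACTCA, which reads TGAGTCA on the other strand, and the cyclic AMP response element TGACGTCA; none of these contains another. The E-box was found for 10 of the 40 genes, or 25.0%, against 8.09% of 27025 genes. The 40 genes had 52 windows, against 32851 windows in all. The 27025 genes were not limited to those with a count here, so the 2 shares are not for genes of like level. They were Eif1b, Eif3a, Eif3f, Eif3k, Eif4a1, Eif4e, Eif4g1, Eif4h, Eif5a and Eif5a2. The AP-1 site was found for Eif1, Eif3j1 and Eif3l, or 7.5%, against 5.95% of all genes, and the response element for none, against 2.03%. A match is a description of these letters and not a bound site.

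The 250 bases before the start are shown for Eif4e, the only gene besides Eif5a2 with 2 E-boxes before the start in 1 window, for Eif4a1, the highest row in CPM, and for Eif1, the highest of the 3 with the AP-1 site per kb of exon. Capitals mark the matches. The windows are chr3:138527018-138527267 on the plus strand for Eif4e, chr11:69672424-69672673 on the minus strand for Eif4a1 and chr11:100319699-100319948 on the plus strand for Eif1, all in GRCm38.p6.
Eif4e: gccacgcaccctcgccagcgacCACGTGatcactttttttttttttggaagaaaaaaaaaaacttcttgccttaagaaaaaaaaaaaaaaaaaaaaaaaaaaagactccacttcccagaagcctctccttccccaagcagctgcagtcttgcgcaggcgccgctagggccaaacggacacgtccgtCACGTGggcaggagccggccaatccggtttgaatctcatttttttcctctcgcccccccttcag
Eif4a1: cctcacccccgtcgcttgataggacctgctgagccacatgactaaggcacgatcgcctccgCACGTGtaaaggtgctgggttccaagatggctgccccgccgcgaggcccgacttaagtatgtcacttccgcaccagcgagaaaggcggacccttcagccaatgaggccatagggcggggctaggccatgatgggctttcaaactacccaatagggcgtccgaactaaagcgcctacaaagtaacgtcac
Eif1: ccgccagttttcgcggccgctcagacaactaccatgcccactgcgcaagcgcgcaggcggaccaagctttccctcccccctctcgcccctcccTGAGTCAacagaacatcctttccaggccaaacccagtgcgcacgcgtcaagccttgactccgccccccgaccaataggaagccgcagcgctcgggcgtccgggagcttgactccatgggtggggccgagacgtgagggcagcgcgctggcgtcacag
The Eif4e matches begin 228 and 64 bases before the start, the Eif4a1 match 189 bases and the Eif1 match 157 bases before it. Eif1, with the AP-1 match, was higher in replicates 2 and 3, and so was Eif3j1, whereas Eif3l, with the same match, was lowest in replicate 2. Among genes with the E-box, Eif3a was high and Eif4e low in replicates 2 and 3. Whether the matches have a part in these levels was not tested.

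The wider initiation pathway was read from lists of 57 genes other than immediate early genes. Of these, 47 entered the spread test and 0 passed it in edgeR. An unadjusted p under 0.05 in that test was found for 5 of the 47, against 4.35% of all rows tested. The adjusted p of each of the 5 was 0.94 in the same edgeR test. Ppp1r15a, the stress-inducible subunit that directs the phosphatase to eIF2, gave 108, 1971, 2285 and 37.9 CPM in replicates 1 to 4 and had the widest spread of the 5. Pabpc1, the poly(A)-binding protein that closes the mRNA loop through eIF4G, gave 331, 682, 617 and 108 CPM. The other 3 were Fmr1, Abcf1 and Eef2k, the last 2 at 7.86 and 11.9 CPM in replicate 4 against means of 55.3 and 79.3 CPM. Atf4, the transcription factor translated when eIF2 is phosphorylated, gave 140, 181, 138 and 83.4 CPM.

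The 4 eIF2 kinase genes differed in how they varied. Eif2ak1 stood at 101, 75.6, 60.8 and 67.7 CPM in replicates 1 to 4, Eif2ak2 at 26.3, 17.2, 23.6 and 57.9 CPM and Eif2ak3 at 37.2, 30.7, 26.4 and 1.87 CPM. Eif2ak4 gave 19.2 and 7.99 CPM in replicates 2 and 3 and 2 and 7 counts in replicates 1 and 4. Eif2ak4 encodes the kinase that responds to amino acid shortage, and replicates 1 and 4 were both near 0.

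The remaining values are for the highest genes of each list by CPM. The elongation factor Eef1a1, highest of all 57 per kb of exon, stood at 2895 ± 409 CPM and Eef2 at 387 ± 80.8 CPM (SD, n = 4). Cyfip1, whose product can bind eIF4E, stood at 895 ± 68.4 CPM, Mknk1, an eIF4E kinase gene, at 172 ± 46.1 CPM and Rheb, the activator of mTORC1, at 161 ± 54.4 CPM. The recycling factor genes Abce1 and Denr stood at 79.3 ± 23.4 and 79.2 ± 23.6 CPM. The release factor genes Gspt1 and Etf1 stood at 112, 110, 149 and 37.4 CPM and at 29.8, 95.6, 93.0 and 26.5 CPM in replicates 1 to 4. The mitochondrial initiation factors Mtif3 and Mtif2 stood at 36.9 ± 8.70 and 27.2 ± 13.8 CPM, and the antiviral genes Ifit3 and Ifit2 at 36.4 ± 7.71 and 14.5 ± 11.5 CPM (SD, n = 4).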

How the data were processed

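The authors deposited raw read counts per gene symbol, 1 file per library, without normalisation. Alignment tools and build, per the submitters' processing notes, were STAR 2.7.10a, HTSeq 0.11.2, SAMtools 1.16.1 and GRCm39. Not given in the sources used here are how reads were filtered, which annotation was counted and with which strand setting. The 5 closing rows of each file, 20.8% ± 1.28 of listed reads (SD, n = 4), stayed out of totals and tests. The 80 rows and all gene lists were chosen with earlier results of these data known.

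Exon lengths were unions of GENCODE M21 exons (GRCm38), matched by symbol for 61 of the 80 rows, and because the builds differ the only coordinates printed are RefSeq promoter windows, in GRCm38.p6. Pair ratios used log2 of (count + 0.5) per kb within each library. Spread was tested with edgeR 4.0.16 (R 4.3.3): filterByExpr with a minimum count of 10, TMM scaling, a quasi-likelihood fit with an intercept alone, and an upper-tail F test of each dispersion against the trend, with Benjamini-Hochberg adjustment over 9075 rows. DESeq2 1.42.0 gave an alternative. The fit was tested on simulated data. Coding sequences were the longest open reading frames among each gene's GENCODE transcripts, and pseudogene transcripts were used whole, aligned with Biopython 1.88. Alternatives covered scaling, filters, tools, length, the added count and leaving out each replicate. Python 3.11.15, pandas 2.3.3 and scipy 1.17.1 did the rest. No library pair was close to sampling noise: chi-square per degree of freedom was 47.8 or more. Replicates 2 and 3 were the most alike, at 47.8, and every other pair lay between 224 and 377. Intervals and the limit of 3 counts cover counting error only, since amplified reads are not independent molecules. All rows of the rule were named or counted, and values per library were given for the 4 highest rows of each role and both genes of each pair, with the Eif1ad2 to Eif1ad19 rows given by counts.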

Additional observations from a re-analysis of the deposited data

Results flagged for a closer look

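In groups of 4 libraries, a value is listed here when its gap to the nearest other library is most of the range over all 4. Of 83 quantities examined, 9 met this. The chance rate of about 1 in 20 holds for independent, normally distributed values. The share over all genes was not computed, so no excess among initiation factors can be read from this count. Eif2b4 in replicate 1 (107 CPM against 43.3 to 53.7) had a gap of 0.836 of the range and Eif4ebp1 in replicate 1 (55.6 against 32.8 to 34.0) a gap of 0.947. Eif3l in replicate 2 (78.1 CPM against 123 to 130) had a gap of 0.865. In replicate 4, Eif3c (114 CPM against 157 to 161) had a gap of 0.914, Eif4e2 (111 against 66.3 to 71.6) a gap of 0.881 and the summed eIF5A genes (570 against 474 to 487) a gap of 0.866. The pair ratios Eif4ebp1 over Eif4ebp2, Eif4ebp2 over Eif4ebp3 and Eif2d over Eif2a stood apart in replicate 4, with gaps of 0.955, 0.931 and 0.960, each resting on a gene with 0 or 1 counts there.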

How the results depend on the processing

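The count of 0 rows called for spread was the same under every setting run: DESeq2 size factors, library totals, no filter, a mean of at least 10 CPM, robust weighting, the bias-adjusted fit (chosen after seeing the data), DESeq2 dispersion outliers and each replicate left out. Eif4ebp2 joined Eif3a and Eif5b at an unadjusted p under 0.05 with no filter or with the CPM filter, and Eif1a did without replicate 4. The count of rows at 10 CPM or more in every library ran from 39 to 47, and the summed share of counts of the initiation factor rows from 0.703% to 0.744%. All 16 pair means kept their sign in 112 recomputations. The log2 value of 4 moved by over 1.5 times without length correction, and of 3 per kb of the longest transcript (chosen after seeing the data). It did so for 1 with an added count of 5, 1 without replicate 1, 4 without replicate 4 and none without replicate 2 or 3. Because that rule divides 1 log2 value by another, it passes over some larger moves of the ratio itself. For example, Eif4a1 over Eif4a3 moved 2.04-fold and Eif5a over Eif5a2 2.11-fold without length correction. Eif4ebp1 over Eif4ebp2 moved 1.85-fold without replicate 2 and 1.67-fold without replicate 3. Of 18 shares within a family, 10 moved by more than their SD without length correction. No paired analysis was possible because the labels give 1 group. Alternatives for levels, family shares and library order were also chosen after seeing the data. Depth limits the rows at 0 counts, and the number of libraries limits every test.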

Other observations

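The length of the longest annotated transcript differed with the library in which a row was lowest. Among the 48 initiation factor rows at a mean of 10 CPM or more, this length had a median of 3424 bases for the 18 rows lowest in replicate 4 and 2641 bases for the other 30. Over all such rows with a length the medians were 4011 and 2916 bases. For rows lowest in replicate 2 the order was the opposite, 2025 against 3383 bases among the initiation factors and 2443 against 3604 over all rows. For rows lowest in replicate 3 the initiation factors and all rows differed in direction, with 3405 (7 rows) against 2865 bases and 3020 against 3422 bases. For replicate 1 they differed too, with 3016 (12 rows) against 2836 bases and 3282 against 3363 bases. Whether transcript length has a part in the low Eif3a, Eif5b and Eif4g1 levels of replicate 4 was not tested.

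Eif2s3x and Eif2s2 encode partners of 1 complex. In replicate 4 Eif2s3x was at its highest, 98.7 CPM, and Eif2s2 at its lowest, 56.8 CPM. Eif3e and Eif3a did the same, at 254 and 18.2 CPM. Either extreme was common there: replicate 4 was highest for 36.0% and lowest for 37.7% of all rows at a mean of 10 CPM or more.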
